A study of Mus musculus with 2 samples.

Results

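Crypt base stem cell genes are genes used to mark the stem cells at the bottom of the intestinal crypt. The 10 genes examined were Lgr5, Olfm4, Ascl2, Smoc2, Sox9, Tnfrsf19, Lrig1, Hopx, Prom1 and Msi1, of 22350 protein-coding genes in the annotation, and they were chosen by name. Open chromatin was mapped by ATAC-seq, a method that uses a transposase to cut and tag exposed DNA, in enteroids grown from ileal crypts of mice aged 4 months on a mixed C57Bl6/129sv background. Control enteroids, labelled WT, carried floxed Taf4 alleles (Taf4 lox/lox) and no Cre, so Taf4 stayed intact. Taf4-inactivated enteroids, labelled KO, carried the same floxed alleles together with VilCreER T2, a tamoxifen-dependent Cre recombinase driven by the villin promoter in intestinal epithelium. According to the sample names and the study's methods both were given 4-hydroxytamoxifen, at 1 µM for 3 days. Taf4 encodes a subunit of TFIID, the general factor that helps to place RNA polymerase II at promoters. The comparison asks what open chromatin around the stem cell genes looked like shortly after loss of Taf4.

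There was 1 library per genotype. Every difference below therefore describes 2 libraries, without a replicate and without a test between genotypes. Peaks within 1 kb of any annotated start site of a gene were taken as its promoter peaks, and other peaks in the gene body or within 50 kb on either side as distal peaks, which are putative enhancers. A neighbourhood of that size can hold elements of other genes. The height of a peak was its fold enrichment over the background of its own library, and it was read as a percentile among all peaks of the same list, with 100 for the highest. A rank difference is the percentile after inactivation minus the percentile in control, in points. Coordinates are on mm9.

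In the intestine, stem cells at the crypt base divide throughout life and supply all the epithelial lineages. They sit between Paneth cells, depend on Wnt signals, and are held in the stem cell state by a small set of receptors and transcription factors. Accessible promoters and enhancers are where such factors bind, although an open promoter does not report how much a gene is transcribed.

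The control list held 90445 peaks and the Taf4-inactivated list 71282. The depth of the Taf4-inactivated library, estimated from the background under its peaks, was 60.5% of that of the control library. The promoter of the targeted gene, annotated as Taf4a, was at percentile 74.7 in control and 58.7 after inactivation, which does not report whether the floxed exons were deleted. All 9 epithelial marker genes had a promoter peak in both lists. Promoter peaks were found at 2 of 5 immune, 3 of 6 stromal and 2 of 4 endothelial marker genes in control, and at 1, 3 and 1 of them after inactivation. Among the markers of differentiated crypt cells, 1 of 4 Paneth cell genes had a promoter peak in both lists, Lyz1, at percentile 50.2 in control and 86.2 after inactivation. Of the 9 epithelial markers 3 ranked lower by at least 10 points and 0 higher, where 26.4% and 13.5% of coding genes with a promoter peak in both lists did. Their median difference was -2.16 points. Of the 3 stromal markers with a promoter peak in both lists 2 ranked lower by as much, and Col1a1 went from 10.7 to 18.1. The markers that differed by at least 25 points, beside Lyz1, were the endothelial Kdr (93.1 to 35.9), the stromal Pdgfra (74.3 to 33.3), the myeloid Itgam (59.3 to 29.4), Krt18 of the epithelium (68.7 to 36.4) and the tuft cell genes Dclk1 (96.9 to 64.2) and Trpm5 (35.7 to 9.68). Cd68, Pecam1, Agr2 and Neurog3 had a promoter peak in control only and Tff3 after inactivation only. The defining genes Ptprc, Cd3e, Cdh5, Tek, Col3a1, Pdgfrb and Dcn, and the Paneth cell genes Mmp7, Ang4 and Defa24, had none in either list. The part of other cell types in the results below was not tested.

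The stretches before the start sites of 4 genes are shown first, because Lgr5 and Tnfrsf19 ranked highest among the 10 promoters in control, while Ascl2 and Olfm4 were the ones that ranked higher after inactivation. Each is the 250 bp upstream of the outermost annotated start, on the strand of the gene, read from the mm9 reference. The Tnfrsf19 promoter peaks near this start lay inside the gene, 101 bp from it in control and 254 bp after inactivation. They do not overlap the stretch shown.
Lgr5 promoter (chr10:115024837-115025086, minus strand): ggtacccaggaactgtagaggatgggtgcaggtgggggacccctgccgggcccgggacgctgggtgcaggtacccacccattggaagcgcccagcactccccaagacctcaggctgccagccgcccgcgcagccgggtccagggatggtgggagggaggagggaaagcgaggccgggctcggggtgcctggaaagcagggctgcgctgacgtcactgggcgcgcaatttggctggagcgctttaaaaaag
Tnfrsf19 promoter (chr14:61665693-61665942, minus strand): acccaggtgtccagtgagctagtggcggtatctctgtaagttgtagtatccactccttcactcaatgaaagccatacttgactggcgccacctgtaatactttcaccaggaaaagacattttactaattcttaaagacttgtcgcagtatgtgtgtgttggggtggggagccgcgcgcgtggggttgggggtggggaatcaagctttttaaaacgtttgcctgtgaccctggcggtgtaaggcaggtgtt
Ascl2 promoter (chr7:150155170-150155419, minus strand): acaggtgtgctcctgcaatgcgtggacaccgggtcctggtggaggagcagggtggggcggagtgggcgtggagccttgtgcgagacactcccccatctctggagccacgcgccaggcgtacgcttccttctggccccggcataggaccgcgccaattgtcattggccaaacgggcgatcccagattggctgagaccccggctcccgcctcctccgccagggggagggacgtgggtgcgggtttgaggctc
Olfm4 promoter (chr14:80399859-80400108, plus strand): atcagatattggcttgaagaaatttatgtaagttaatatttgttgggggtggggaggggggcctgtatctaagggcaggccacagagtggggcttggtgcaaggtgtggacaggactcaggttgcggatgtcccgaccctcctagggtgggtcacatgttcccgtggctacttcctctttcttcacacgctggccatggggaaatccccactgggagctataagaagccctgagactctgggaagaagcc
These stretches hold no match to 6 of the 7 short recognition sequences searched here, so they carry no capitals. The GC content was 68.0% before Lgr5, 67.6% before Ascl2, 54.0% before Olfm4 and 50% before Tnfrsf19. Over the 10 genes the median was 63.2%, with 54.0% over 22345 coding promoters, and the range ran from 44.8% at Prom1 to 80.8% at Msi1.

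The distal elements shown next are the highest-ranking distal peaks of 5 genes by fold, including both Lgr5 intron peaks that were strong by fold in both lists. Each window is 300 bp around the centre of a peak, taken from the Taf4-inactivated list except for Sox9, where it is from the control list, and is given on the plus strand. Capitals mark matches on either strand to CTTTGA (for TCF/LEF, the Wnt effectors), TGANTCA (for AP-1), AGATAAG (for factors of the GATA family), AAAGTCC (for HNF4), TTTATNG (for CDX factors) and CAGCTG (an E-box that ASCL factors can use).
Lgr5 intron peak at 82.0 kb (chr10:114942703-114943002): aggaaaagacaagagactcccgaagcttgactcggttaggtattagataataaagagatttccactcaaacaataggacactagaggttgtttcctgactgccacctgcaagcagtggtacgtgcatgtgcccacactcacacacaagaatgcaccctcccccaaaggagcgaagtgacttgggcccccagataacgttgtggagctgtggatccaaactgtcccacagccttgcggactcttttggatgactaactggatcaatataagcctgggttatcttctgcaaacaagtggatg
Lgr5 intron peak at 103 kb (chr10:114921703-114922002): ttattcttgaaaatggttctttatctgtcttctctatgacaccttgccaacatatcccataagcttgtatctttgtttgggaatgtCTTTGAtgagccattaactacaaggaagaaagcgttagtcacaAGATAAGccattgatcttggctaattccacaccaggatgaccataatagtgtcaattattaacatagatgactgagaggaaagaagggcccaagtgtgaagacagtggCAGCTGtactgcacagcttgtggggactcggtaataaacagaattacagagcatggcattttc
Prom1 downstream peak (chr5:44339650-44339949): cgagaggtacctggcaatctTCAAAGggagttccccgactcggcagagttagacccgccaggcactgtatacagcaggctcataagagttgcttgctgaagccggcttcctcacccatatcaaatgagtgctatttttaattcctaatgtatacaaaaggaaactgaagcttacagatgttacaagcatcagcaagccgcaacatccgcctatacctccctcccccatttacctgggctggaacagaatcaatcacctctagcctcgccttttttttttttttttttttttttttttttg
Lrig1 upstream peak (chr6:94679788-94680087): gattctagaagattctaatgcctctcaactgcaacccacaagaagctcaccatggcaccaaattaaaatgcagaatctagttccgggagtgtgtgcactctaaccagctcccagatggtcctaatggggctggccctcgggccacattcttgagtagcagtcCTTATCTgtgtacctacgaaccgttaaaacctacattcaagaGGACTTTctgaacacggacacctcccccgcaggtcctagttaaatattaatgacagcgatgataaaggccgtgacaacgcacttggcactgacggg
Hopx intron peak (chr5:77536298-77536597): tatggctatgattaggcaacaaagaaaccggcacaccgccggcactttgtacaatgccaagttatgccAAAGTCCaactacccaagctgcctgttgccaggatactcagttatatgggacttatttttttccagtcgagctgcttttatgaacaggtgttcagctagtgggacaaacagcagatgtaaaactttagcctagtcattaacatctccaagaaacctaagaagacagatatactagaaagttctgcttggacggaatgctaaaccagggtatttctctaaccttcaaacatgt
Sox9 downstream peak (chr11:112696719-112697018): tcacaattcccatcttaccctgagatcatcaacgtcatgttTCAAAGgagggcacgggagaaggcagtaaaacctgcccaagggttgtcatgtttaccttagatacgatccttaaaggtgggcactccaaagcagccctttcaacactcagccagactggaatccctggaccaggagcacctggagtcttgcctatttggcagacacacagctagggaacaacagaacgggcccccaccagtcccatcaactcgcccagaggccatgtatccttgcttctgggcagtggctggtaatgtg
None of these windows overlaps an annotated exon. A match to CTTTGA stands in the Lgr5 window at 103 kb and in the Prom1 and Sox9 windows, and the same Lgr5 window also holds AGATAAG and CAGCTG. The Lrig1 window holds AGATAAG and AAAGTCC, the Hopx window AAAGTCC, and the Lgr5 window at 82.0 kb no match. A match is a string of letters and was not measured as a bound site.

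All 10 stem cell genes had a promoter peak in both lists, where 62.7% of coding genes did. At a -log10 q of at least 5 only 3 of the 10 did, Lgr5, Lrig1 and Hopx, where 34.1% of coding genes did. Their promoters ranked lower after Taf4 inactivation more often than higher. Sox9, Prom1, Tnfrsf19, Smoc2 and Lgr5 were lower by at least 10 points, 5 of 10, where 26.4% of the 14014 coding genes with a promoter peak in both lists were. Ascl2 alone was higher by at least 10 points, 1 of 10, with 13.5% over coding genes, and Olfm4, Lrig1, Hopx and Msi1 stayed within 10 points. In cultures that hold several cell types, fewer stem cells and less open chromatin per stem cell cannot be told apart. The median rank difference was -12.1 points over the 10 genes and -2.78 over the coding genes. Ranked among peaks with a counterpart in the other list only, the median of the 10 genes was -9.21 points. In control the median promoter percentile was 82.0 for the 10 genes and 88.2 for those coding genes, and the comparison was not matched for it. With only 10 genes a single gene weighs heavily in these counts, and the list was chosen by name.

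**Figure D1:**
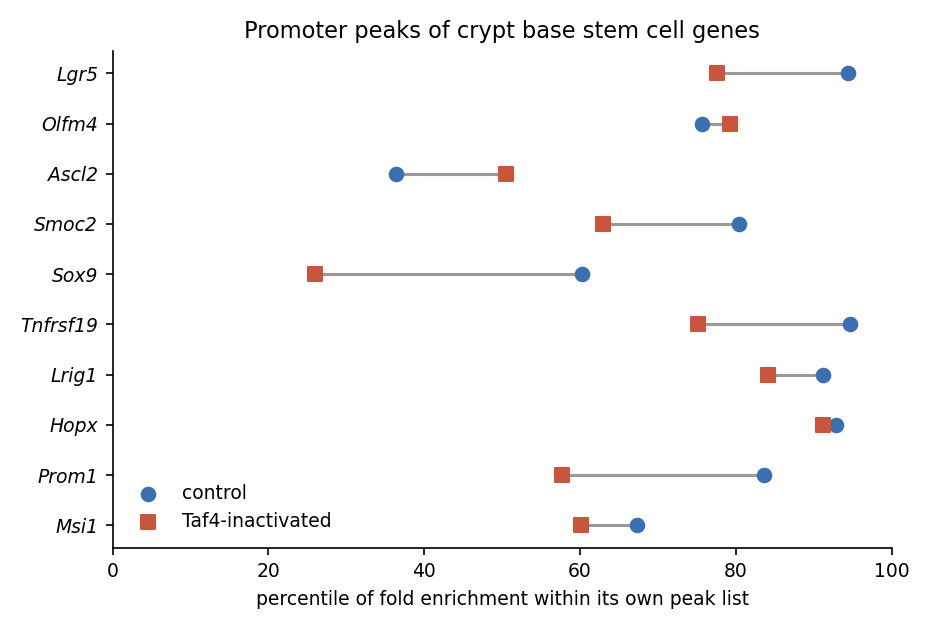
Percentile of the highest promoter peak of each gene within the control list (blue circles) and the Taf4-inactivated list (red squares), 1 library each; grey lines join the values of a gene. Sox9 shows the widest gap, from 60.3 to 25.9, and Ascl2 and Olfm4 are the genes whose red square lies to the right of the blue circle.

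The direction depended on how peaks were ranked. Ranked by the -log10 p of the peak, 6 of the 10 promoters were lower and 0 higher by at least 10 points, with 25.1% and 7.65% over coding genes. Ranked by the estimated read pileup, 4 were lower and 1 higher, with 20.1% and 8.51%. Smoc2, Tnfrsf19 and Prom1 were lower by at least 10 points under all 3 rankings. For Tnfrsf19 the peaks compared lie at different start sites, and p and pileup were not compared site by site. Ranked by width, 1 was lower and 4 were higher, with 18.6% and 22% over coding genes, and the median difference turned to 4.46 points, with 1.56 over coding genes.

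Among the genes for membrane proteins, Lgr5 encodes the R-spondin receptor that amplifies Wnt signals and is the classical marker of these stem cells. Its promoter peak in control covered chromosome 10, 115023376 to 115025485, and its fold enrichment of 2.84 put it at percentile 94.4. The corresponding peak after inactivation, 115023262 to 115025120, had a fold enrichment of 3.05 and stood at percentile 77.5. The fold enrichments are on scales that differ between the libraries, whose median peaks were at 2.03 and 2.45, and the difference in rank was -16.9 points. By pileup it was -5.54 points, below the 10 point limit, and the background around the peak was 1.23 times the lowest level of its library in control and 1.65 times after inactivation.

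By fold, Lgr5 had the highest-ranking intronic peaks of the 10 genes. The peak 82.0 kb into the gene, at 114942297 to 114943361 in control, was at percentile 99.6 and remained at 98.3 after inactivation. The peak at 103 kb, 114921725 to 114922003, was at 94.3 and then 97.7. Between them, the peak at 114929184 to 114929464 went from percentile 88.2 to 63.2, a difference of -25.0 points. By fold, the Lgr5 locus thus paired 2 intronic elements near the top of both lists with a promoter and another intronic element that ranked lower after inactivation. By pileup the peak at 82.0 kb was at 96.1 and 89.8, and the peak at 103 kb at 76.6 and 82.3. The peak between them differed by -22.6 points by pileup, while the promoter stayed within the 10 point limit. An intergenic peak upstream, at 115062033 to 115062375, was at 89.9 and 89.7. The distal Lgr5 peaks without a counterpart in the other list were weak, the highest at percentile 64.4 in control (115057419 to 115057649) and 30.1 after inactivation (114998369 to 114999276).

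Tnfrsf19, also known as Troy, encodes a TNF receptor family member and is a target of Wnt signalling. It has promoter peaks at separate start sites. Near the start at 61665692 on chromosome 14 the peak was at percentile 94.7 in control and 69.7 after inactivation. At the start at 61656824 it was at 90.8 and 75.2. The peaks at both of these sites thus ranked lower by fold, and a further annotated start had no promoter peak. The highest peak was near 61665692 in control and at 61656824 after inactivation. The difference of -19.5 points between the highest peaks of each list thus compared different sites. Tnfrsf19 was also the 1 gene of the 10 whose distal peaks had no counterpart in the other list, in either direction. It had 4 such peaks in control and 6 after inactivation, and none was above percentile 54.7 (61610626 to 61610825, intronic) in control or 54.2 (61689787 to 61690133, intergenic) after inactivation. This depended on the rule of at least 1 bp of overlap. An upstream peak at 61675974 to 61676561 in control and one at 61675583 to 61675902 after inactivation lay close together without overlapping. They would count as counterparts with a gap of up to 500 bp allowed.

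Lrig1 encodes a membrane protein that restrains ErbB receptor signalling. Its main promoter peak, at 94649169 to 94650967 on chromosome 6 in control, was at percentile 91.2, and the corresponding peak after inactivation, 94649298 to 94651198, was at 84.1. The difference of -7.14 points was within the 10 point limit. A second Lrig1 promoter peak, 361 bp from an internal start in control and 416 bp after inactivation, was at 27.9 and 38.1. The nearest Lrig1 peak beyond the 1 kb limit lay 1540 bp from a start in control, at percentile 82.9, and 1564 bp after inactivation, at 64.9.

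Lrig1 had 14 distal peaks in control and 8 after inactivation, with 6 matched between the lists. The upstream peaks at 94678903 to 94680389 and 94667777 to 94669341 were at percentiles 97.4 and 95.3 in control and at 95.7 and 93.3 after inactivation. An intronic peak at 94642470 to 94642847 went from 89.6 to 52.0, the widest difference of the gene at -37.6 points, and -20.1 by pileup. The additional control peaks lay mostly in the gene body, and the highest of those without a counterpart (94609929 to 94610353) was at percentile 58.2. After inactivation the highest one without a counterpart (94664883 to 94665095) was at 21.5.

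Prom1 encodes prominin, the CD133 membrane glycoprotein. Its promoter peak covered 44491983 to 44493282 on chromosome 5 at percentile 83.6 in control, and 44491898 to 44493268 at percentile 57.6 after inactivation. The difference was -26.0 points by fold, -20.2 by p and -13.8 by pileup. Farther away the picture was mixed, and of 8 distal pairs 4 ranked higher and 1 lower by at least 10 points, or 2 and 1 by pileup. The intergenic peak beyond the end of the gene, at 44339013 to 44340551, was the highest distal peak of any of the 10 genes after inactivation. It was at percentile 99.3 with a fold enrichment of 3.62 in control and at 99.9 with 6.07 after inactivation. The widest difference at Prom1 was at 44496220 to 44496774, where a weak peak went from 15.2 to 48.7. By pileup this difference was 9.59 points, within the 10 point limit. Peaks without a counterpart reached percentile 78.7 in control (44536190 to 44536551) and 58.9 after inactivation (44509349 to 44509548).

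**Figure D2:**
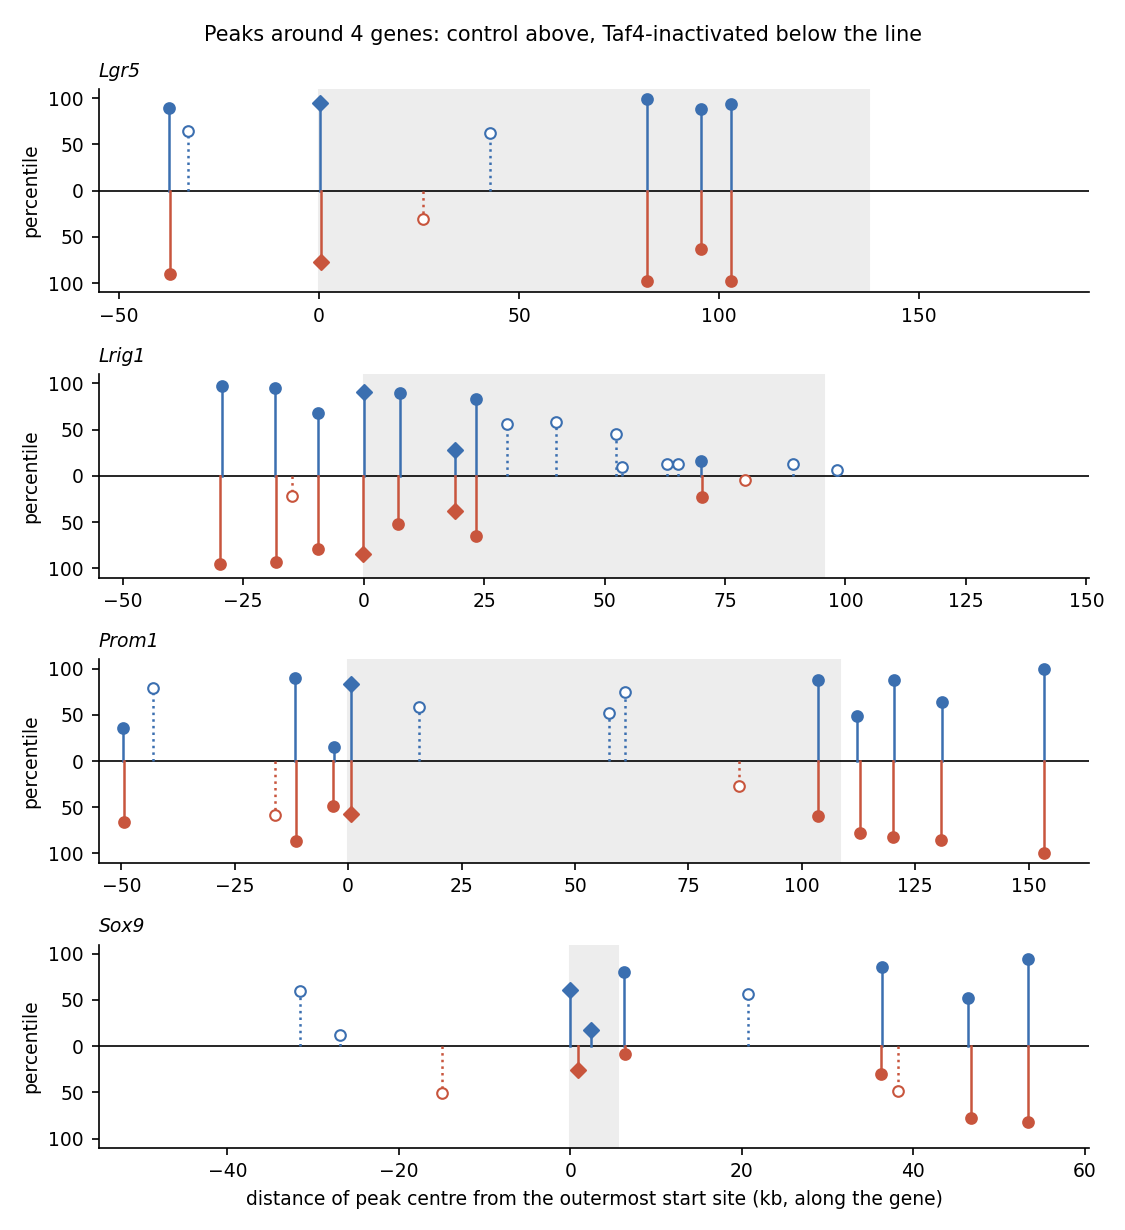
Peaks around Lgr5, Lrig1, Prom1 and Sox9 by the distance of their centre from the outermost start site (kb, along the gene), with the percentile in the control list drawn upwards in blue and in the Taf4-inactivated list downwards in red. Diamonds are promoter peaks, circles distal peaks, open circles on dotted lines peaks with no counterpart, and grey the gene body; the Lgr5 intron peak at 82.0 kb (99.6 and 98.3) and the last Prom1 peak (99.3 and 99.9) reach the top in both directions.

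Of the genes for secreted proteins, Olfm4 encodes olfactomedin 4, an abundant product of crypt base stem cells. A narrow peak of 249 bp lay at its start in control (chromosome 14, 80400041 to 80400289), at percentile 75.7. After inactivation the peak was 1202 bp wide (80399152 to 80400353), at percentile 79.3, a difference of 3.64 points. The Olfm4 promoter was thus listed as open in both libraries within 10 points by fold, and ranked 23.4 points higher by pileup. Few distal peaks surrounded the gene, 3 in each list. A wide intergenic control peak at 80385117 to 80387203, at percentile 67.5, was covered by separate peaks after inactivation, at 13.4 (80385357 to 80385781) and 82.3 (80386714 to 80386959). The pair with the longest overlap gave a difference of -54.1 points, which the second of these peaks shows to depend on how the region was split into peaks. The Olfm4 peak with no counterpart was in control, at 80381171 to 80381661 and percentile 67.3.

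Smoc2 encodes a secreted calcium-binding matrix protein. Its promoter peak at 14416082 to 14417098 on chromosome 17 was at percentile 80.4 in control, and after inactivation it was at 62.9 (14416270 to 14417611), a difference of -17.5 points. The difference was -20.6 points by p and -19.8 by pileup. A weak control peak at an internal start, at percentile 23.7, had no counterpart. Smoc2 had 17 distal peaks in control and 13 after inactivation, of which 12 and 8 had no counterpart. The highest, upstream at 14410304 to 14410689, was at 89.3 in control and 83.4 after inactivation. Among its pairs the widest difference was 16.8 points higher, at 14386635 to 14387774, from 49.5 to 66.4, but -2.42 points by pileup. Without a counterpart, the highest Smoc2 peaks were intronic and at percentile 55.9 in both lists, 14470442 to 14470675 in control and 14498498 to 14498748 after inactivation.

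Among the genes for nuclear factors, Ascl2 encodes a Wnt-induced bHLH transcription factor that maintains the stem cell state. Its promoter peak had the lowest rank of the 10 genes in control, percentile 36.3 (chromosome 7, 150153246 to 150155529), and was at 50.5 after inactivation (150153259 to 150155269). The difference of 14.2 points turned to -7.89 by p and to -9.91 by pileup, so no direction can be given for Ascl2. The background around the peak was about the same multiple of the lowest level in both libraries, 2.03 and 2.09. Ascl2 had 11 distal peaks in each list, with 9 pairs. By fold 4 of these were lower and 4 higher by at least 10 points, by p 4 and 2, and by pileup 7 and 1. The widest difference was in an intron of the neighbouring gene Th, at 150112946 to 150113422, from 72.9 to 4.22, and was -36.1 points by pileup. Its highest distal peak, at 150118224 to 150118845, was at 86.9 and 75.6. Peaks without a counterpart reached percentile 40.3 in control (150141806 to 150142190) and 14.3 after inactivation (150107547 to 150107835).

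Sox9 encodes an HMG-box transcription factor of crypt base and Paneth cells. In control a peak at 112642537 to 112644384 on chromosome 11 was at percentile 60.3, and a second at 112645240 to 112646644 was at 17.6. After inactivation a single peak of 3982 bp (112642474 to 112646455) covered both start sites, at percentile 25.9. The difference of -34.3 points was the widest of the 10 promoters, but the deposited fold is an average over the peak, and the merged peak includes the weaker stretch. By p the difference was -19.0 points and by pileup -7.52, within the 10 point limit.

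All 4 distal pairs of Sox9 differed by at least 10 points, 3 lower and 1 higher. The peak just beyond the gene, at 112649462 to 112650118, went from percentile 80.6 to 8.60, and the one at 112679336 to 112680404 from 85.9 to 29.8. The highest, at 112696505 to 112697232, went from 94.1 to 82.6, while the peak at 112689398 to 112690537 went from 52.3 to 78.1. The wide differences here were smaller by pileup, -31.1 points for the first and -31.3 for the second. Without a counterpart the highest Sox9 peaks were at 59.3 in control (112611867 to 112612190) and 50.4 after inactivation (112628453 to 112628697).

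Hopx encodes an atypical homeodomain protein that marks slowly cycling cells above the crypt base as well as Lgr5-expressing cells. Its internal promoter ranked high in both lists, at percentile 92.9 in control (chromosome 5, 77523735 to 77524403) and 91.1 after inactivation (77523360 to 77524456), a difference of -1.73 points. The outermost Hopx start, at 77544186, had a peak in control at percentile 70.8 and none after inactivation. The intronic peak at 77536183 to 77536764 was also close in rank, 90.6 and 92.3. Of the 3 distal pairs of Hopx the widest difference was -15.9 points, at 77504317 to 77505271, from 75.6 to 59.7, and -8.60 points by pileup. The highest peak without a counterpart was at 76.3 in control (77576733 to 77577310) and at 65.9 after inactivation (77500691 to 77500968).

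Msi1 encodes Musashi-1, an RNA-binding protein that regulates translation in stem and progenitor cells. Its promoter was at percentile 67.4 in control (chromosome 5, 115879116 to 115880913) and 60.1 after inactivation (115879434 to 115880143), a difference of -7.20 points. By p and by pileup the differences of -13.2 and -11.8 points passed the limit. A control peak 613 bp from another Msi1 start, at percentile 44.1, had no counterpart. Msi1 lies in a gene-dense region, and 6 of its 17 distal peaks in control and 5 of 11 after inactivation were within 1 kb of a start site of another gene. The widest difference lay in the neighbouring gene Sirt4, at 115932501 to 115932832, from 83.5 to 7.89. The highest distal peak after inactivation also lay at Sirt4, at 115934234 to 115934673, with percentile 83.0 against 47.2 for its control counterpart. By pileup these 2 differences at Sirt4 were smaller, -41.1 and 10.7 points. An intergenic control peak of Msi1 at 115953094 to 115953432 was at percentile 92.1 with a -log10 q of 7.11. It was the only distal peak of the 10 genes in the top 10% of its list without a counterpart. After inactivation the highest Msi1 peak without one was at 22.5 (115925800 to 115926367).

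Counted together, the 10 genes had 102 distal peaks in control and 80 after inactivation. At a -log10 q of at least 5 in both lists the order turned, to 12 and 22, and so did that of the shares without a counterpart given next, to 8.33% and 50%, with 8.62% and 54.3% over coding genes. Over coding genes the order of the counts turned as well, to 8574 and 17187. Without that limit the median per gene was 11 and 7.5, with 8 and 6 over all coding genes. In control 51 of the 102 had no counterpart (50%, exact Clopper-Pearson 95% CI 39.9 to 60.1), where 52% of the 73830 distal peaks of coding genes did not. After inactivation 28 of 80 had none (35%, CI 24.7 to 46.5), where the share was 39.3% of 58613. Both intervals cover counting error only, and both include the share over coding genes. Among the 10 genes the values ran from Tnfrsf19, with 0 pairs, to Ascl2 and Msi1, with 9 and 10.

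**Figure D3:**
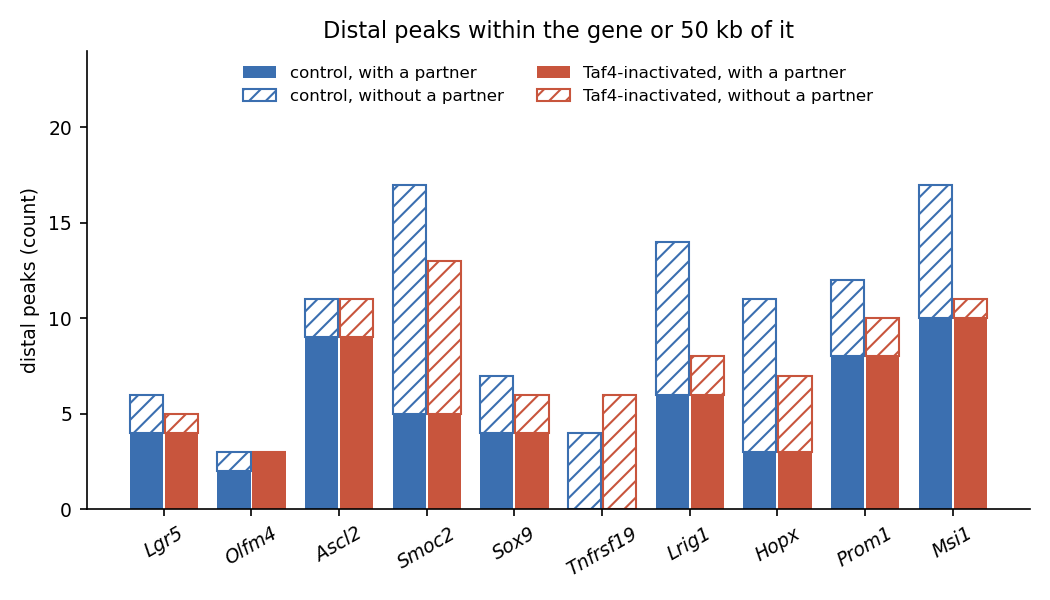
Number of distal peaks of each gene in the control list (blue) and the Taf4-inactivated list (red), filled for peaks that overlap a peak of the other list and hatched for those that do not. Smoc2 and Msi1 have the most in control, 17 each, and Tnfrsf19 has hatched bars only.

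Among the distal peaks of the stem cell genes, those without a counterpart were weaker and narrower by median than those with one. In control their median -log10 q was 1.76 and their median width 385 bp, against 3.47 and 955 bp for those with one. After inactivation the values were 1.94 and 289 bp against 3.88 and 512 bp. Of the peaks without a counterpart, 36 of 51 in control and 16 of 28 after inactivation had a -log10 q below 2. These medians and counts have no comparison value over the distal peaks of all coding genes. Whether they are particular to the stem cell genes was therefore not tested. A narrow peak also has less length with which to meet the overlap rule, and the part of width was not tested. The library with the lower estimated depth had the fewer peaks in all, and the part of depth in these counts was not tested.

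Ranked by fold, most of the strongest distal control peaks were in the top 10% of both lists. Of 8 control distal peaks above percentile 90, the 6 at Lgr5, Lrig1, Hopx and Prom1 had a counterpart above percentile 90 (75%, CI 34.9 to 96.8), where 46% of 3152 such control peaks outside start sites did, a share within that interval. The others were the Sox9 peak, now at 82.6, and the Msi1 peak without a counterpart. No distal peak of the 10 genes was above percentile 90 by fold after inactivation alone. Ranked by pileup, of these 6 peaks those at Lrig1 and Prom1 were above percentile 90 in both lists. In control and after inactivation the Lgr5 peak at 82.0 kb was then at 96.1 and 89.8. The Lgr5 peak at 103 kb was at 76.6 and 82.3, and the Hopx peak at 72.7 and 82.9.

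Over the 51 distal pairs of the 10 genes, 19 ranked lower and 13 higher by at least 10 points, and 19 stayed within. Among 26898 pairs outside start sites 37.1% were lower and 25.4% higher. The median difference was -1.71 points for the stem cell genes and -2.92 over all pairs. Leaving out pairs at start sites of any gene, 17 of 43 were lower and 11 higher. The split shifted with the ranking. By p 21 were lower and 8 higher, with 40.5% and 23.8% over all pairs, and by pileup 22 and 8, with 39.4% and 21.7%.

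**Figure D4:**
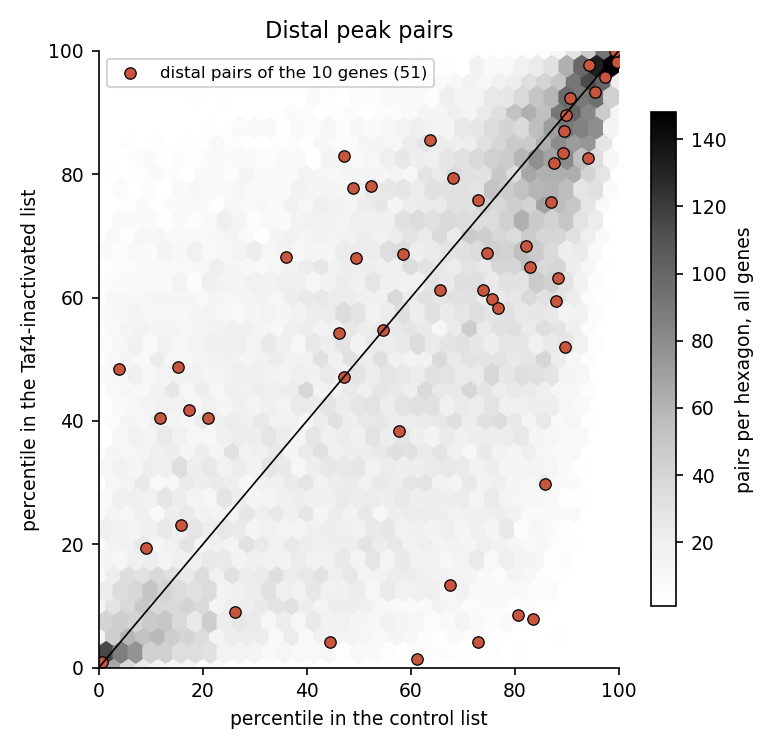
Percentile of paired distal peaks in the control list (horizontal) and the Taf4-inactivated list (vertical), as red points for the 51 pairs of the 10 genes and grey hexagons for all 26898 pairs outside start sites; the line marks equal rank. The points lie on both sides of the line, 19 lower and 13 higher by at least 10 points, and close up towards the top right corner.

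The recognition sequences were counted in the 300 bp windows on both strands. CTTTGA, the TCF/LEF sequence, was in 15 of 102 control windows (14.7%, CI 8.47 to 23.1) and in 16 of 80 after inactivation (20.0%, CI 11.9 to 30.4). It was in 17.5% of 70789 control windows and 20.8% of 53780 after inactivation over all peaks outside start sites. CAGCTG was in 21.6% and 21.3% of the windows of the stem cell genes, and TGANTCA in 11.8% and 16.2%. AAAGTCC was in 6.86% and 10%, and AGATAAG in 5.88% and 6.25%. TTTATNG was in 9.80% and 7.5%, and AGNNGGC, a core of the CTCF sequence that is short enough to be common, in 55.9% and 56.2%. For each of the 7 sequences in both lists the interval of the stem cell genes included the share over all peaks. Of the windows of the stem cell genes, 10 per list lay at start sites of another gene. Such peaks were left out of the comparison windows. Without them CTTTGA was in 16.3% of 92 windows in control and in 22.9% of 70 after inactivation. Read on the other strand CTTTGA is TCAAAG, which shares AAAG with AAAGTCC. Before the outermost start sites of the 10 genes, CTTTGA was in 0 of 10 stretches of 250 bp, with 13.4% over coding promoters, and TGANTCA was in that of Sox9 alone, with 6.01%. These stretches need not lie in the promoter peaks ranked above. That of Tnfrsf19 lies outside its peaks, and the ranked Hopx promoter peak is at an internal start. The Prom1 stretch lies almost wholly outside its promoter peak in control and wholly outside it after inactivation.

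**Figure D5:**
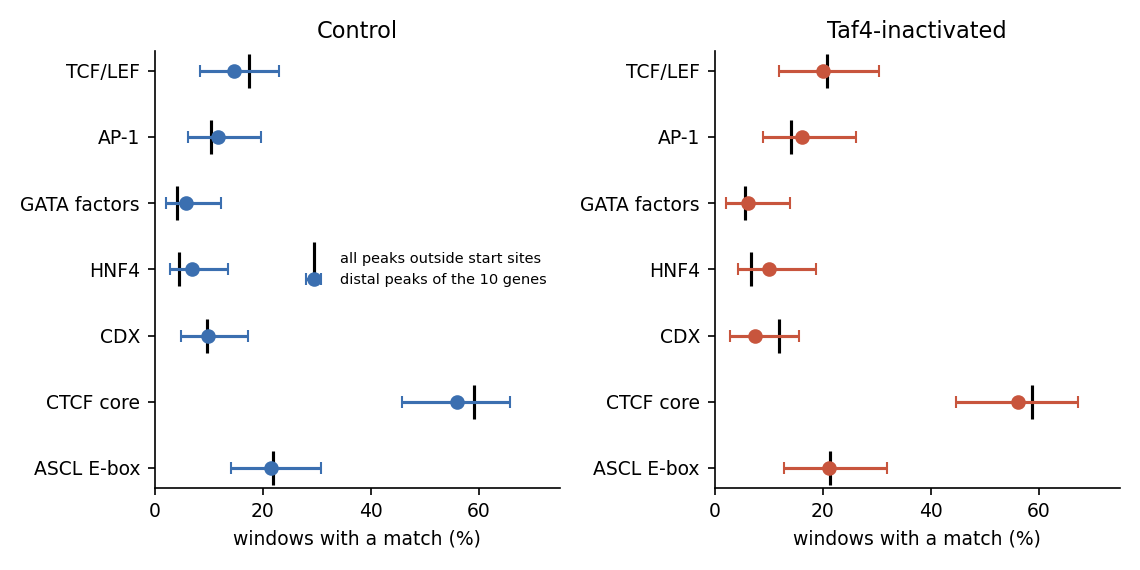
Share of 300 bp windows with at least 1 match to each recognition sequence (%), for the distal peaks of the 10 genes as points with exact 95% intervals and for all peaks outside start sites as black ticks, in the control list (left) and the Taf4-inactivated list (right). Each tick lies within the interval of its point, and TCF/LEF is at 14.7% and 20.0%.

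Other crypt base genes served as a wider group. Of 22 such genes, among them the Wnt targets Axin2, Rnf43 and Ephb2, 21 had a promoter peak in both lists. Of these 7 were lower and 2 higher by at least 10 points, where 26.4% and 13.5% of coding genes with a promoter peak in both lists were. Their median difference was -5.15 points, with -2.78 over coding genes. The lower ones included the water channel gene Aqp4, from percentile 92.4 to 19.1, and Cdk6 and Sox4, from 80.9 to 49.1 and from 74.8 to 49.0. Kcnq1 went from 7.31 to 34.5, and Nav1 had a promoter peak after inactivation only, at 54.1. By pileup the differences of Cdk6 (-6.2), Sox4 (-4.2) and Kcnq1 (-2.9) were within the 10 point limit, and that of Aqp4 was -76.8 points. The share of their distal peaks without a counterpart was 47.9% in control and 32.8% after inactivation, near those of the 10 genes. Of 12 enterocyte genes 6 had a promoter peak in both lists, 2 lower and 1 higher, with a median of -5.21 points. By pileup the lower ones were within the 10 point limit (-7.0 and 2.0), and the higher one differed by 17.1 points. Fabp1, Fabp2 and Krt20 had one after inactivation only, at 59.6, 71.1 and 59.8, and Apoa1 in control only, at 23.8. Sis had none in either list.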

How the data were processed

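ATAC-seq libraries of 1 control and 1 Taf4-inactivated enteroid culture were compared, grouped by the genotype in the labels. The authors mapped reads to mm9 with Bowtie 1.0.0, keeping unique alignments, and ran MACS2 2.1.1 on each library by itself in its broad mode. Handling of duplicate reads is not given in the sources used here. The deposited score, fold, −log10 p and −log10 q are the authors' averages over a peak, and none is normalized between libraries. The score was not used.

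Positions were made 1-based and annotated with GENCODE for NCBIM37 (mm9), from which sequences were also read. Peaks were ranked within their list by fold, p, width or a pileup solved from fold and Poisson p. That solved level is approximate. Its 5th percentile over the narrowest 10% of peaks gave the relative depth, since read totals were not analysed here. A counterpart overlapped by at least 1 bp, and pairs were peaks that overlapped each other best. For a promoter the peak with the highest fold in each list was used. Solving, overlaps and distances were tested on simulated data. Python 3.11.15, numpy 2.4.6, pandas 2.3.3, scipy 1.17.1 and matplotlib 3.10.9 were used.

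With 1 library per genotype no p-value was computed. The genes, lists and limits were chosen with earlier results of these data known. Named were, per gene, the highest promoter and distal peaks, the widest pair and the highest peak without a counterpart, and in comparison lists genes lacking a peak or differing by at least 25 points, except that 2 of these are not reported here. Alternatives changed the ranking, q, distances and overlap. Pileup ranks and motif windows outside all start sites were added after seeing the data.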

Additional observations from a re-analysis of the deposited data

How the results depend on the processing

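No paired analysis was possible because each genotype had a single library, and leaving out a library leaves no comparison. Of 92 alternative values of the main results 67 stayed near the reported one. Requiring a -log10 q of at least 5 in both lists left promoter peaks at 5 of the 10 genes in control, 5 after inactivation and 3 in both, with 35.5%, 46.5% and 34.1% of coding genes. Ranking by width turned the median promoter difference to 4.46 points, with 1 gene lower and 4 higher, and reversed Smoc2 (13.8), Sox9 (4.14), Tnfrsf19 (25.9), Prom1 (4.77) and Ascl2 (-0.230). Ascl2 also reversed by p (-7.89) and by pileup (-9.91). Promoters higher by at least 10 points numbered 0 by p and 2 when ranked among peaks with a counterpart.

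Distal peaks in control and after inactivation numbered 45 and 33 within 10 kb of the gene, 175 and 129 within 100 kb, 55 and 52 at a -log10 q of at least 2, and 12 and 22 at 5, which reversed their order. The order over coding genes also reversed at 5, from 73830 and 58613 to 8574 and 17187. The share without a counterpart was 8.33% and 50% at a -log10 q of at least 5, with 8.62% and 54.3% over coding genes, and 68.6% and 60.0% when 50% of both peaks had to overlap, with 69.8% and 61.9%. Distal pairs lower and higher by at least 10 points were 21 and 8 by p, 22 and 8 by pileup, and 13 and 7 of 32 with that overlap (35.4% and 23.7% over all pairs). Within 10 kb of the gene they were 8 and 5 of 20, where 37.1% and 25.4% of all pairs outside start sites were. The cause of these shifts was not tested. Depth was estimated from the background under peaks only, and what it limits was not tested.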
